A study of Homo sapiens with 35 samples.

Results

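The 8 genes described here encode carriers of the plasma membrane that move glutamine, glutamate or the neutral amino acids exchanged for them. They are SLC38A1, SLC38A2, SLC38A4 and SLC38A5 of the SLC38 family and SLC1A1, SLC1A3, SLC1A4 and SLC1A5 of the SLC1 family, 8 of the 18404 genes that have a symbol of their own on the arrays. The list was drawn from these families, does not hold all of their members, and was made with earlier results of these data known. In it 2 genes, SLC38A5 and SLC1A3, were selected on their measured difference between the cell lines. The line differences of these 2 genes are therefore given as a description with no test, and the other 6 were tested. Responses to a condition in shControl cells were tested for all 8. For the 2 selected genes these tests are not independent of the selection, because shControl arrays also enter their line differences. For a gene with several transcript clusters (the array's unit of probes) the cluster with the highest mean was used, which applied to 1 of the 8, SLC1A5. No filter on low values was used, so all 8 were measured and compared in every group.

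HCT116 is an established human colorectal carcinoma line. The groups were formed by line and condition: HCT116 cells with a hairpin against CDK8 (shCDK8), with a hairpin against CDK19 (shCDK19) or with a non-target hairpin (shControl). CDK8 and its paralog CDK19 are kinases that join the Mediator coactivator of RNA polymerase II, and the study compared their knockdown under several stresses. Each line had 2 arrays after 24 h of hypoxia at 1% oxygen, 3 in untreated normal growth, 2 after 12 h with 5-fluorouracil (5FU, an antimetabolite that blocks thymidylate synthase) and 3 after 24 h in low glucose medium. The shControl line alone also had 2 arrays after 12 h with DMSO, the vehicle, and 3 after 24 h in high glucose medium, which gives 35 arrays in 14 groups. Cells of every group were plated in McCoys 5A medium with fetal calf serum, and both glucose media were DMEM. Every line carried a hairpin and each target had 1 hairpin line, so knockdown of the target and whatever else sets that line apart cannot be told apart.

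SLC38A1 and SLC38A2 are sodium-coupled carriers that load cells with glutamine, alanine and other small neutral amino acids, and SLC38A2 is known for its induction by amino acid shortage. SLC1A5 is an exchanger that brings glutamine into many proliferating tumour cells in return for another neutral amino acid, and glutamine feeds nucleotide synthesis, glutathione synthesis and the citric acid cycle. SLC1A1 and SLC1A3 take up glutamate and aspartate against steep gradients and are best known from neurons, intestinal epithelium and astrocytes.

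Values are log2 signals as deposited, with a floor at 4.32 that no array reached for any of the 8 genes. Signals of different genes come from different probes, so levels are compared within a gene only, and array values are relative to the other genes of the same array. Across genes, replicate arrays had Pearson correlations from 0.976 to 0.998. Replicate 1 of shCDK8 in normal growth stood apart from its other replicates (r of 0.987 and 0.989, against 0.997 between the other pair), and the 2 hypoxic shControl arrays were the least alike pair. The cluster that CDK8 shares with ADRA1B was lower in shCDK8 cells than in shControl cells by 2.02 to 2.74 log2 units over the 4 conditions, and CDK19 was lower in shCDK19 cells by 1.08 to 1.56. The CDK19 difference under hypoxia missed the threshold (adjusted p = 0.0948 by limma). Median signals of the epithelial genes EPCAM, KRT8, KRT18 and KRT19 lay between 12.2 and 13.1, and those of CDH1 and CLDN4 were 11.3 and 10.8. Of the leukocyte genes PTPRC was at the floor on 13 of the 35 arrays, while CD3E and CD14 had medians of 6.10 and 6.57. Of the fibroblast genes DCN and LUM were at the floor on 23 and 33 arrays, while COL1A1, COL1A2 and PDGFRB had medians of 8.67, 6.95 and 6.62. The astrocyte genes GFAP, ALDH1L1, S100B and AQP4 had medians of 7.19, 6.89, 5.67 and 4.95, and the part of such cells or genes in the results was not tested. The number of arrays limits the precision, and the labels do not state whether replicates were separate cultures. The p-values therefore reflect array-to-array spread, which could be technical alone. In a bulk culture, fewer cells that express a gene and less RNA per cell cannot be told apart.

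All 8 genes had promoter entries in RefSeq (GRCh38.p14), 14 in all, each running from 250 bases before to 50 bases after an annotated start. Each 300 base window was searched on both strands for TGATGNAA, a form of the C/EBP-ATF response element bound by ATF4 in the amino acid response, and for CACGTG, the E-box bound by MYC with MAX and related factors. The response element was in 3.62% and the E-box in 7.26% of all 35116 promoter windows. Among the windows of the 8 genes, 4 held the response element and 2 held the E-box, and no window held both. Below is the window with a match of SLC38A5 and of SLC1A3, the 2 genes with the widest range over the groups, and of SLC1A4. The matches are in capitals. The windows lie at chrX:48470211-48470510 (minus strand), chr5:36596338-36596637 (plus strand) and chr2:64989149-64989448 (plus strand), and all are printed 5′ to 3′ along the gene.
SLC38A5: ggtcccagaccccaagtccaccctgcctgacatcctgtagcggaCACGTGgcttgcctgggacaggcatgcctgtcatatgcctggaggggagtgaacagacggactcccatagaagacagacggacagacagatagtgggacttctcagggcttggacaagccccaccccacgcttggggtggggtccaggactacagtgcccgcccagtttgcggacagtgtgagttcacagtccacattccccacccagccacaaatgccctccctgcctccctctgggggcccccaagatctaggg
SLC1A3: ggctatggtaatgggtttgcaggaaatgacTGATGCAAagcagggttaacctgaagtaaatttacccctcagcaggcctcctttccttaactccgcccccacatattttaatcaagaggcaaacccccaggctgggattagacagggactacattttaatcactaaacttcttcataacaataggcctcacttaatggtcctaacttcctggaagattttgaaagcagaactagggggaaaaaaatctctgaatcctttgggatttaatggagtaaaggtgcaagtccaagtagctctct
SLC1A4: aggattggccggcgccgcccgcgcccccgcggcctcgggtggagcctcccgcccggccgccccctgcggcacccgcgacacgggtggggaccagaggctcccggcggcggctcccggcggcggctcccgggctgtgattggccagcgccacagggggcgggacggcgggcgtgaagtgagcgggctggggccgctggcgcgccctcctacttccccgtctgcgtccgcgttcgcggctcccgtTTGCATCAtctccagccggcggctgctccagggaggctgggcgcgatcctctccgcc
The first base of the SLC38A5 match, an E-box, is at position -206 from the start, that of the SLC1A3 match, a response element, at position -220, and that of the SLC1A4 match, a response element on the opposite strand, at position -7. The other matches were TGATGAAA in a window of SLC38A1 (position -4), and CACGTG and TGATGCAA in separate windows of SLC1A5 (positions -50 and -97). The remaining windows held no match, among them the other windows of SLC1A3 and SLC1A4 and all windows of SLC1A1, SLC38A2 and SLC38A4. A match describes letters in a window and is not evidence of binding. SLC38A1, SLC38A2 and SLC38A4 are neighbours on chromosome 12, with 0 protein-coding genes annotated between them.

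Over the 14 groups the members fell into wide and narrow ranges. The group means of SLC1A3 spanned 4.09 log2 units, those of SLC38A5 4.01, those of SLC1A1 3.62 and those of SLC1A4 2.12, against pooled SDs within groups of 0.14, 0.12, 0.14 and 0.13. SLC1A5 spanned 1.02, SLC38A1 0.77, SLC38A2 0.49 and SLC38A4 0.35, against within-group SDs of 0.051, 0.063, 0.072 and 0.14. The spread of group means was larger than in 99.9% of all genes for SLC38A5 and SLC1A3, 99.5% for SLC1A1 and 95.6% for SLC1A4. It was larger than in 73.2% of genes for SLC1A5, 55.1% for SLC38A1, 17.5% for SLC38A2 and only 8.61% for SLC38A4. SLC38A5 and SLC1A3 were selected on their line differences, so their wide spread follows in part from that choice. Across the 14 group means SLC38A1 ran with SLC1A5 (Pearson r = 0.857), SLC38A5 with SLC1A3 (r = 0.799), SLC1A4 with SLC1A5 (r = 0.789) and SLC38A1 with SLC1A4 (r = 0.775). These correlations are descriptions over 14 groups that share lines and experiments. That of SLC38A5 with SLC1A3 also follows in part from the choice of both genes on their line differences.

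SLC38A5, a carrier that couples glutamine, asparagine and histidine to sodium in exchange for protons and can run in both directions, was far lower in the shCDK8 line than in both other lines in every condition. In normal growth its log2 signals were 6.44, 6.34 and 6.01 in shCDK8 cells, 9.87, 9.81 and 9.79 in shCDK19 cells and 9.54, 9.51 and 9.61 in shControl cells. Under 5FU they were 6.60 and 6.31 in shCDK8 cells, 9.49 and 9.43 in shCDK19 cells and 9.68 and 9.63 in shControl cells, with 9.46 and 9.52 in shControl cells given DMSO. The shCDK8 arrays did not come near those of the other lines, which lay close to each other. In low glucose SLC38A5 had 6.94, 6.67 and 6.94 in shCDK8 cells, 10.23, 10.37 and 10.24 in shCDK19 cells and 9.83, 9.80 and 9.83 in shControl cells, with 9.51, 9.50 and 9.58 in shControl cells in high glucose. Under hypoxia it had 6.22 and 6.58 in shCDK8 cells, 9.10 and 9.03 in shCDK19 cells and 8.85 and 9.03 in shControl cells. The gap between shCDK8 and shControl cells was thus present in all 4 conditions, and it was narrowest under hypoxia.

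The SLC38A5 difference between shCDK8 and shControl cells was -3.29 ± 0.10 (log2 ± SE, 9.75-fold lower) in normal growth, -3.20 ± 0.10 (9.17-fold lower) under 5FU, -2.97 ± 0.07 (7.84-fold lower) in low glucose and -2.54 ± 0.15 (5.81-fold lower) under hypoxia. Between shCDK19 and shControl cells it was 0.27 ± 0.10 in normal growth, -0.19 ± 0.10 under 5FU, 0.46 ± 0.07 in low glucose and 0.13 ± 0.15 under hypoxia, so the sign under 5FU was opposite to that in the other conditions. These values chose the gene and carry no test. In order of level, shCDK19 cells in low glucose came first (10.28 ± 0.07, SD, n = 3), then shCDK19 cells in normal growth and shControl cells in low glucose, whose arrays overlapped, then the other shControl and shCDK19 groups down to hypoxic shControl cells (8.94 ± 0.13, SD, n = 2). The 4 shCDK8 groups were last, from 6.85 ± 0.16 in low glucose to 6.27 ± 0.23 in normal growth (SD, n = 3 each), and the 3 lowest of them overlapped with their neighbours.

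SLC1A3, a glutamate and aspartate carrier known for clearing glutamate into astrocytes, separated the knockdown lines in opposite directions. In normal growth its log2 signals were 6.38, 6.45 and 6.74 in shCDK8 cells, 10.48, 10.47 and 10.34 in shCDK19 cells and 8.44, 8.45 and 8.44 in shControl cells. Under hypoxia they were 6.59 and 6.31 in shCDK8 cells, 10.33 and 10.47 in shCDK19 cells and 7.29 and 7.41 in shControl cells. In both conditions the shCDK19 arrays were highest, the shCDK8 arrays lowest and the shControl arrays between them, with no overlap. In low glucose SLC1A3 had 7.71, 7.69 and 7.35 in shCDK8 cells, 10.53, 10.62 and 10.46 in shCDK19 cells and 9.01, 9.02 and 9.15 in shControl cells, with 9.11, 9.14 and 9.14 in shControl cells in high glucose. Under 5FU it had 7.54 and 7.50 in shCDK8 cells, 8.42 and 8.60 in shCDK19 cells and 8.67 and 8.47 in shControl cells, with 8.58 and 9.04 in shControl cells given DMSO. Only in the 5FU experiment, of the 4, did the shCDK19 arrays overlap with the shControl arrays.

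The SLC1A3 difference between shCDK8 and shControl cells was -1.92 ± 0.09 (3.78-fold lower) in normal growth, -1.05 ± 0.16 (2.07-fold lower) under 5FU, -1.48 ± 0.09 (2.78-fold lower) in low glucose and -0.90 ± 0.13 (1.86-fold lower) under hypoxia. Between shCDK19 and shControl cells it was 1.99 ± 0.09 (3.97-fold higher) in normal growth, 1.48 ± 0.09 (2.79-fold higher) in low glucose and 3.05 ± 0.13 (8.28-fold higher) under hypoxia, but -0.06 ± 0.16 under 5FU. The gap between shCDK8 and shCDK19 cells was 15.4-fold under hypoxia, 15-fold in normal growth, 7.75-fold in low glucose and 1.99-fold under 5FU. The shCDK19 groups in low glucose (10.54 ± 0.08), normal growth (10.43 ± 0.08, SD, n = 3 each) and hypoxia (10.40 ± 0.10, SD, n = 2) overlapped and stood above all other groups. The 6 groups below them, 5 of shControl cells and the shCDK19 cells under 5FU, ran from 9.13 to 8.44, each overlapping with the next. Hypoxic shControl cells (7.35) lay among the shCDK8 groups, which ran from 7.58 in low glucose to 6.45 under hypoxia.

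**Figure D1:**
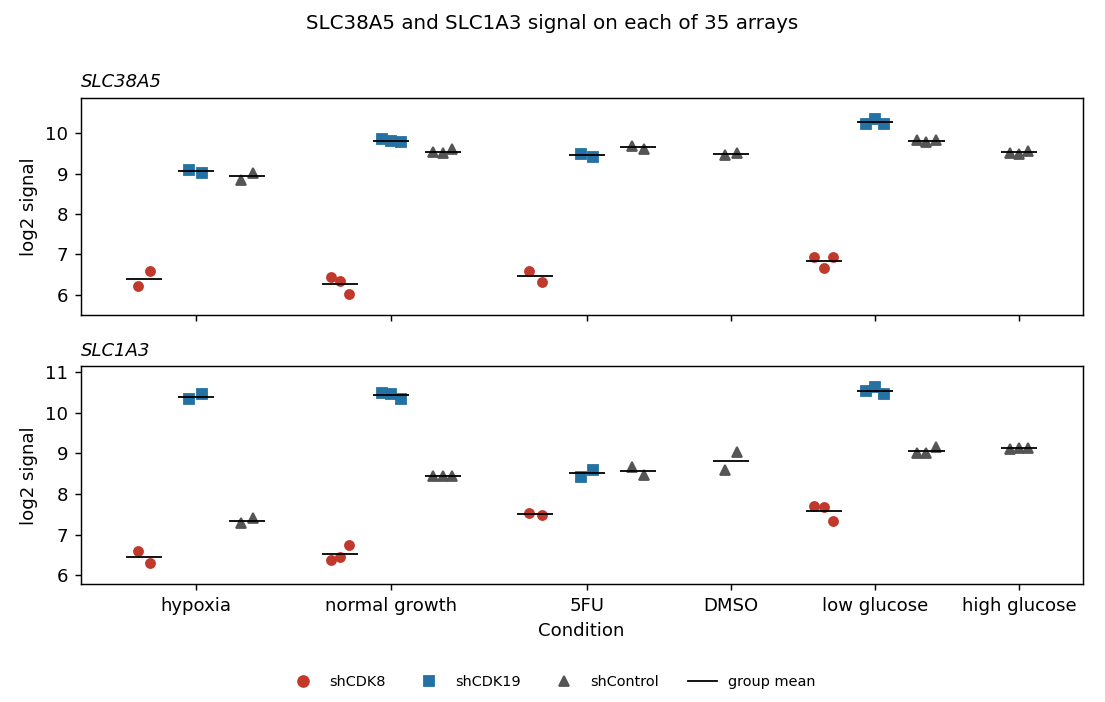
Log2 signal of SLC38A5 (top) and SLC1A3 (bottom) on each of the 35 arrays, with condition on the x axis, 1 symbol per array, symbol and colour by line, and a bar at each group mean. SLC38A5 in shCDK8 cells lies between 6.01 and 6.94, below every array of the other lines, and SLC1A3 in shCDK19 cells lies between 10.33 and 10.62 except under 5FU.

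The genes whose 14 group means ran most like SLC38A5, among 1917 genes with a comparable spread, were MPP7, a scaffold protein of cell junctions (r = 0.974), the kinase ARAF (r = 0.959), the transcription factor NFIB (r = 0.955), the cytochrome P450 gene CYP4F11 (r = 0.952) and AFF4, a scaffold of the super elongation complex (r = 0.943). Like SLC38A5 they were lowest in shCDK8 cells, which follows from a ranking by likeness to SLC38A5. NFIB averaged between 5.88 and 6.24 in the 4 shCDK8 groups, against 8.46 to 9.87 in the other 10, and MPP7 between 7.63 and 8.82, against 10.19 to 11.12. For SLC1A3 the genes most alike were ODAD2 (r = 0.884), KRTCAP3 (r = 0.881), TCEA3, an elongation factor (r = 0.880), the trafficking protein MAL2 (r = 0.873) and CRYBG1 (r = 0.872). The correlations are over 14 group means that share lines and experiments, and they describe likeness only.

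SLC1A1, the glutamate and aspartate carrier of neurons and of kidney and intestinal epithelium, had higher signals in shCDK8 cells than in shControl cells on every array of all 4 conditions, a difference that passed the test in 3 of them. In shControl cells SLC1A1 was lower in low than in high glucose and lower after 5FU than after DMSO. It was higher under hypoxia than in normal growth, which belongs to another experiment. In normal growth its log2 signals were 8.76, 9.19 and 9.09 in shCDK8 cells, 8.03, 7.98 and 7.76 in shCDK19 cells and 8.03, 7.95 and 7.96 in shControl cells. Under hypoxia they were 9.83 and 9.67 in shCDK8 cells, 8.53 and 8.79 in shCDK19 cells and 8.40 and 8.67 in shControl cells. The shCDK8 arrays were above those of the other lines in both conditions, and the shCDK19 and shControl arrays overlapped. In low glucose SLC1A1 had 8.42, 8.56 and 8.48 in shCDK8 cells, 7.96, 8.0 and 7.71 in shCDK19 cells and 7.60, 7.33 and 7.36 in shControl cells, with 8.82, 8.88 and 8.80 in shControl cells in high glucose. Under 5FU it had 6.49 and 6.80 in shCDK8 cells, 6.18 and 6.30 in shCDK19 cells and 6.15 and 6.11 in shControl cells, with 7.01 and 7.26 in shControl cells given DMSO. In low glucose the order was shCDK8, shCDK19, shControl, without overlap. The arrays under 5FU had the same order, but no line difference passed there (shCDK19 over shControl cells 0.11 ± 0.13, adjusted p = 0.836 by limma). Every array under 5FU was below every array of the other conditions, DMSO included. In order of level hypoxic shCDK8 cells came first (9.75 ± 0.11, SD, n = 2) and shControl cells under 5FU last (6.13 ± 0.03, SD, n = 2), and 5 of the 13 neighbouring pairs of groups overlapped.

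SLC1A4, an exchanger of alanine, serine, cysteine and other small neutral amino acids, had its highest group mean in low glucose shCDK8 cells and its lowest in hypoxic shCDK19 cells, and among shControl groups its lowest mean was in DMSO (7.47). In normal growth its log2 signals were 8.33, 8.37 and 8.59 in shCDK8 cells, 8.36, 8.27 and 8.33 in shCDK19 cells and 8.87, 8.80 and 8.90 in shControl cells. Under hypoxia they were 7.67 and 7.76 in shCDK8 cells, 7.19 and 6.91 in shCDK19 cells and 7.94 and 7.56 in shControl cells. In normal growth both knockdown lines lay below shControl cells with no overlap, and under hypoxia the shCDK19 arrays were lowest. In low glucose SLC1A4 had 9.08, 9.19 and 9.23 in shCDK8 cells, 8.73, 8.84 and 8.44 in shCDK19 cells and 9.19, 8.98 and 9.09 in shControl cells, with 8.72, 8.37 and 8.61 in shControl cells in high glucose. Under 5FU it had 7.93 and 7.99 in shCDK8 cells, 7.75 and 7.95 in shCDK19 cells and 7.71 and 7.66 in shControl cells, with 7.50 and 7.44 in shControl cells given DMSO. The highest group was shCDK8 in low glucose (9.17 ± 0.08, SD, n = 3), which overlapped with shControl in low glucose, and the lowest was shCDK19 under hypoxia (7.05 ± 0.20, SD, n = 2), with 9 of 13 neighbouring pairs overlapping.

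SLC1A5, the glutamine exchanger, had lower signals in shCDK8 cells than in the other lines in 3 of the 4 conditions, and higher ones under hypoxia. In normal growth its log2 signals were 11.46, 11.55 and 11.57 in shCDK8 cells, 11.83, 11.75 and 11.74 in shCDK19 cells and 11.98, 11.90 and 11.98 in shControl cells. Under hypoxia they were 11.36 and 11.34 in shCDK8 cells, 11.09 and 10.98 in shCDK19 cells and 11.01 and 10.96 in shControl cells. The shCDK8 arrays were the lowest of the lines in normal growth and the highest under hypoxia, with no overlap in either condition. In low glucose SLC1A5 had 11.53, 11.41 and 11.49 in shCDK8 cells, 11.85, 11.87 and 11.83 in shCDK19 cells and 11.77, 11.71 and 11.78 in shControl cells, with 11.72, 11.66 and 11.62 in shControl cells in high glucose. Under 5FU it had 10.89 and 10.98 in shCDK8 cells, 11.23 and 11.26 in shCDK19 cells and 11.12 and 11.14 in shControl cells, with 11.05 and 11.21 in shControl cells given DMSO. The shCDK8 arrays were again lowest of the stressed lines in low glucose and under 5FU. Its highest group was shControl in normal growth (11.96 ± 0.05, SD, n = 3) and its lowest shCDK8 under 5FU (10.93 ± 0.07, SD, n = 2), with 7 of 13 neighbouring pairs overlapping. A second, dimmer cluster of the gene averaged 7.73 over all arrays, and where its calls differ this is given beside the result.

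**Figure D2:**
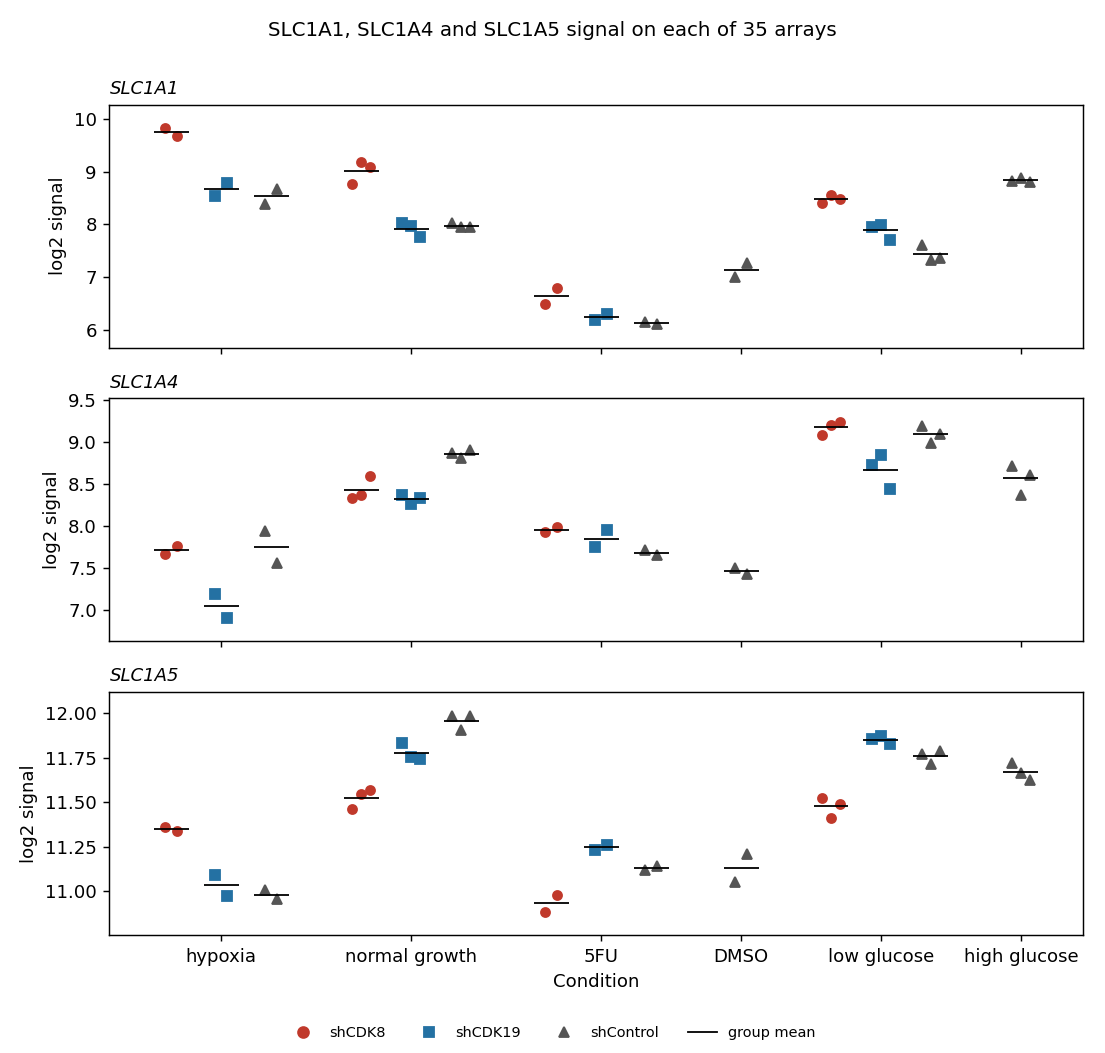
Log2 signal of SLC1A1, SLC1A4 and SLC1A5 (top to bottom) on each of the 35 arrays, with condition on the x axis, 1 symbol per array, symbol and colour by line, and a bar at each group mean. SLC1A1 is highest in shCDK8 cells within each condition, and SLC1A5 in shCDK8 cells is the lowest of the lines in normal growth but the highest under hypoxia.

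The other SLC38 carriers moved little. SLC38A1 lay between 11.94 and 12.76 on all arrays, highest in shControl cells in normal growth (12.72 ± 0.04, SD, n = 3) and lowest in shCDK19 cells under 5FU (11.94). Its log2 signals under hypoxia were 12.40 and 12.45 in shCDK8 cells, 12.09 and 12.00 in shCDK19 cells and 12.03 and 12.18 in shControl cells, so that the shCDK8 arrays stood above the others. SLC38A2 lay between 12.82 and 13.39, highest in shControl cells in low glucose (13.35 ± 0.05, SD, n = 3) and lowest in shCDK19 cells in normal growth (12.86 ± 0.04, SD, n = 3). In normal growth its log2 signals were 12.89, 13.18 and 13.08 in shCDK8 cells, 12.87, 12.89 and 12.82 in shCDK19 cells and 13.21, 13.24 and 13.29 in shControl cells, both knockdown lines below shControl cells. SLC38A4, a carrier best known from liver, lay between 4.94 and 5.60, near the floor, and all 13 neighbouring pairs of its groups overlapped.

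**Figure D3:**
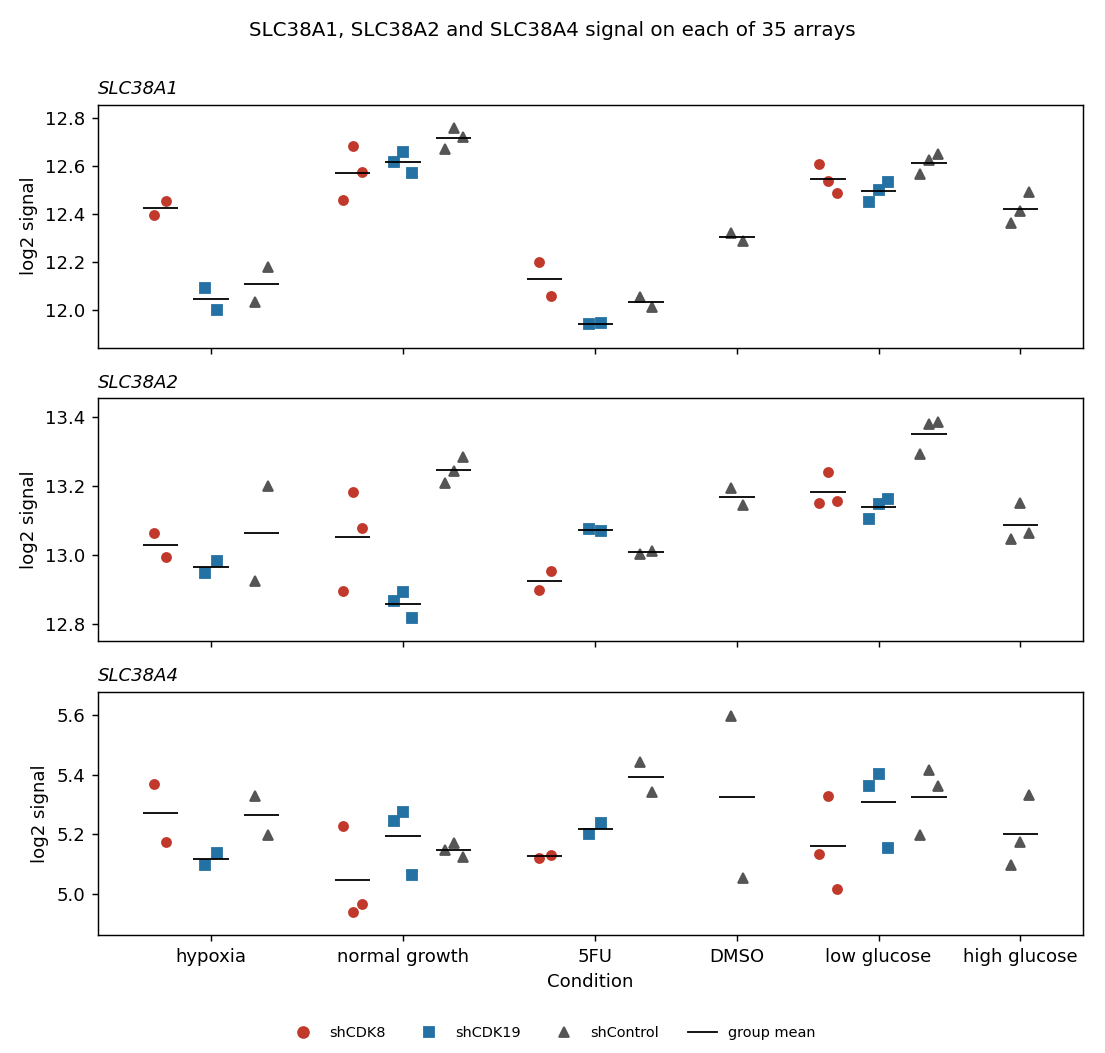
Log2 signal of SLC38A1, SLC38A2 and SLC38A4 (top to bottom) on each of the 35 arrays, with condition on the x axis, 1 symbol per array, symbol and colour by line, and a bar at each group mean. The arrays of each gene span under 1 log2 unit, and SLC38A4, near the floor of 4.32, shows no group apart from the rest.

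In normal growth the shCDK8 line differed from shControl cells in 3 of the 6 tested transporters, 1 higher and 2 lower, where 24.9% of all genes passed the threshold (adjusted p under 0.05 by limma, over 18404 genes). SLC1A1 was higher by 1.04 ± 0.12 (log2 ± SE, 2.05-fold, adjusted p = 0.000533). SLC1A5 was lower (-0.43 ± 0.05, adjusted p = 0.000463), as was SLC1A4 (-0.43 ± 0.07, adjusted p = 0.00415), and the second SLC1A5 cluster was lower too (-0.37 ± 0.103, adjusted p = 0.0365). These 3 calls held without each array in turn, the deviating shCDK8 replicate 1 included. SLC38A2 (-0.19 ± 0.07, adjusted p = 0.0923), SLC38A1 (-0.14 ± 0.06, adjusted p = 0.136) and SLC38A4 (-0.10 ± 0.09, adjusted p = 0.515) did not pass, but without shCDK8 replicate 2 SLC38A1 (-0.20, adjusted p = 0.0415) and SLC38A2 (-0.26, adjusted p = 0.0281) did.

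Normally grown shCDK19 cells differed from shControl cells in 2 of 6, both lower, against 7.07% of all genes. SLC1A4 was lower (-0.54 ± 0.07, 1.45-fold, adjusted p = 0.00463) in all settings run. SLC38A2 was lower (-0.39 ± 0.07, 1.31-fold, adjusted p = 0.0174), a call that was lost without any 1 of the 6 arrays compared (adjusted p between 0.0555 and 0.0786) at nearly the same size. SLC1A1, called in the shCDK8 line, was at -0.06 ± 0.12 (adjusted p = 0.952). Set directly against shCDK19 cells, shCDK8 cells differed in 2 of 6, against 26.1% of all genes: SLC1A1 was 2.13-fold higher (1.09 ± 0.12, adjusted p = 0.000428) and SLC1A5 lower (-0.25 ± 0.05, adjusted p = 0.00631, not called in its second cluster, adjusted p = 0.108). Without shCDK8 replicate 1, SLC38A2 (0.27, adjusted p = 0.00429) and SLC38A4 (-0.24, adjusted p = 0.0244) passed as well.

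In low glucose the shCDK8 line differed from low glucose shControl cells in 3 of 6, 1 higher and 2 lower, where 22.3% of all genes passed. SLC1A1 was 2.08-fold higher (1.05 ± 0.09, adjusted p = 1.94e-05), close to its difference in normal growth. SLC1A5 was lower (-0.28 ± 0.04, adjusted p = 0.000832; second cluster -0.23 ± 0.096, adjusted p = 0.122), and SLC38A2 was lower (-0.17 ± 0.04, adjusted p = 0.0201). The SLC38A2 call was lost without shCDK8 replicate 1 or 3 or shControl replicate 2 or 3 (adjusted p between 0.0665 and 0.074), with the other choice of arrays (0.0537) and with array medians subtracted (0.0969). The shCDK19 line differed from shControl cells in 3 of 6, against 19.9% of all genes. SLC1A1 was higher (0.46 ± 0.09, 1.37-fold, adjusted p = 0.00532), SLC38A2 lower (-0.21 ± 0.04, adjusted p = 0.00728) and SLC1A4 lower (-0.42 ± 0.11, adjusted p = 0.0258). The SLC1A4 call was lost without replicate 1 or 3 of either line (adjusted p between 0.0509 and 0.0893), with all clusters tested (0.0525) and with no moderation of the variance (0.0506). Between the knockdown lines 3 of 6 differed, against 26% of all genes: shCDK8 cells had more SLC1A1 (0.60 ± 0.09, adjusted p = 0.000783) and SLC1A4 (0.50 ± 0.11, adjusted p = 0.00851) and less SLC1A5 (-0.37 ± 0.04, adjusted p = 0.000115) than shCDK19 cells, and all 3 calls held without each array in turn.

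Under 5FU, with 2 arrays a group, 0 of the 6 tested transporters passed in any pair of lines by limma. For shCDK8 against shControl cells 3.5% of all genes passed. At an unadjusted p under 0.05 it was 3 of 6 transporters and 16.9% of all genes. SLC1A1 had 0.52 ± 0.13 (1.43-fold higher, adjusted p = 0.112), SLC1A4 0.27 ± 0.08 (adjusted p = 0.155) and SLC1A5 -0.20 ± 0.07 (adjusted p = 0.232). For shCDK19 against shControl cells 0.837% of all genes passed, 0 of 6 transporters and 13.5% of all genes had an unadjusted p under 0.05, and adjusted p-values of the 6 lay between 0.448 and 0.836. For shCDK8 against shCDK19 cells 5.14% of all genes passed, and 4 of 6 transporters and 20.3% of all genes had an unadjusted p under 0.05, with SLC1A5 nearest the adjusted threshold (-0.31 ± 0.07, adjusted p = 0.0667). In a fit of all 35 arrays SLC1A1 (adjusted p = 0.016) and SLC1A5 (adjusted p = 0.0266) passed for shCDK8 against shControl cells, at the same log2 differences.

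Under hypoxia 1 of the 6 tested transporters differed between shCDK8 and shControl cells, against 7.3% of all genes. It was SLC1A1, 2.32-fold higher in shCDK8 cells (1.21 ± 0.15, adjusted p = 0.0205), and the call was lost without either shCDK8 array (adjusted p of 0.168 and 0.202). SLC1A5 (0.37 ± 0.08, adjusted p = 0.0696 by limma) and SLC38A1 (0.32 ± 0.09, adjusted p = 0.112) did not pass. Without shControl replicate 2 their log2 differences were 0.34 and 0.39. For shCDK19 against shControl cells 0 of 6 passed by limma, against 0.228% of all genes, and at an unadjusted p under 0.05 it was 1 of 6, against 13.2% of all genes. SLC1A4 was nearest (-0.70 ± 0.17, adjusted p = 0.229) and passed without shControl replicate 2 (-0.89, adjusted p = 0.0355). Between shCDK8 and shCDK19 cells 1 of 6 passed, against 12.4% of all genes: SLC1A1 was higher in shCDK8 cells (1.08 ± 0.15, 2.12-fold, adjusted p = 0.0194), a call lost without any 1 of the 4 arrays (adjusted p between 0.133 and 0.168). With replicate number as a block the SLC1A1 calls under hypoxia were lost too (adjusted p of 0.0591 against shControl cells and 0.0515 against shCDK19 cells).

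**Figure D4:**
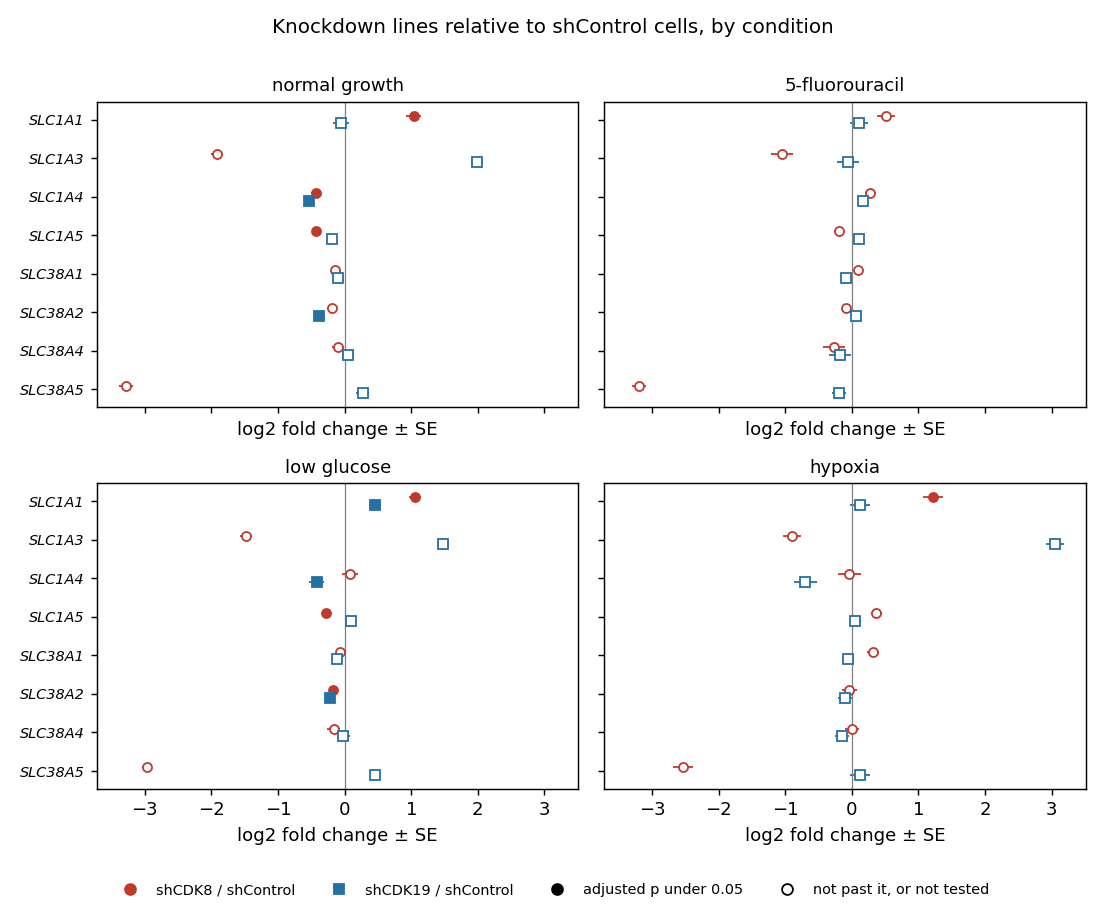
Log2 fold change ± SE of the 8 transporters in shCDK8 cells (circles) and shCDK19 cells (squares) over shControl cells, 1 panel per condition. Filled symbols passed an adjusted p under 0.05, open ones did not or, for SLC38A5 and SLC1A3, were not tested, and SLC1A1 in shCDK8 cells lies right of 0 in all 4 panels, between 0.52 and 1.21.

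In shControl cells low glucose changed 5 of the 8 transporters relative to high glucose, 4 higher and 1 lower, where 31.2% of all genes passed. The SLC1A1 signals, 7.60, 7.33 and 7.36 in low glucose against 8.82, 8.88 and 8.80 in high glucose, did not overlap, and the gene fell 2.65-fold (-1.40 ± 0.09, adjusted p = 2.25e-06). SLC1A4 rose (0.52 ± 0.11, 1.44-fold, adjusted p = 0.00544), and SLC38A2 rose (0.27 ± 0.04, 1.2-fold, adjusted p = 0.00115). SLC38A5 also rose (0.29 ± 0.07, adjusted p = 0.0109), and SLC38A1 rose by less (0.19 ± 0.05, adjusted p = 0.0116). The low glucose shControl arrays also enter the line differences that chose SLC38A5 and SLC1A3, so their tests are not independent of that choice. SLC1A3 (-0.07 ± 0.09, adjusted p = 0.596), SLC1A5 (0.09 ± 0.04, adjusted p = 0.146) and SLC38A4 (0.12 ± 0.10, adjusted p = 0.415) did not pass. The 5 calls held without each of the 6 arrays in turn. The median log2 change of the 8 was 0.16, against 0.017 over all genes.

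In shControl cells 5FU changed 2 of the 8 relative to DMSO, both lower, against 11.5% of all genes. SLC1A1, at 6.15 and 6.11 after 5FU against 7.01 and 7.26 after DMSO, fell 2.01-fold (-1.01 ± 0.13, adjusted p = 0.0111), a call lost without either 5FU array (adjusted p of 0.0741 and 0.076). SLC38A1 fell (-0.27 ± 0.06, adjusted p = 0.0473), a call lost without any 1 of the 4 arrays (adjusted p between 0.0668 and 0.197) and in 5 of 6 other settings. The other 6 did not pass, with SLC1A4 at 0.22 ± 0.08 (adjusted p = 0.145), SLC38A2 at -0.16 ± 0.05 (adjusted p = 0.095), SLC38A5 at 0.16 ± 0.10 (adjusted p = 0.381) and SLC1A3 at -0.24 ± 0.16 (adjusted p = 0.414). SLC38A4 passed without DMSO replicate 1 (0.34, adjusted p = 0.0489). SLC1A5 had nearly equal means, 11.13 after 5FU and 11.13 after DMSO.

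No normoxic array of the hypoxia experiment was analysed here, so hypoxic cells were set against normal growth of another experiment, and oxygen and experiment cannot be told apart. In shControl cells 7 of the 8 transporters differed, 1 higher and 6 lower, where 47.8% of all genes passed. SLC1A5, at 11.01 and 10.96 under hypoxia against 11.98, 11.90 and 11.98 in normal growth, fell 1.97-fold (-0.98 ± 0.05, adjusted p = 9.77e-13). SLC1A4 (-1.11 ± 0.12, adjusted p = 8.5e-08) and SLC1A3 (-1.09 ± 0.12, 2.13-fold, adjusted p = 1.4e-07) fell by more, and SLC38A5 (-0.61 ± 0.11, adjusted p = 7.65e-05) and SLC38A1 (-0.61 ± 0.06, adjusted p = 2.57e-08) by less. SLC1A1 rose (0.56 ± 0.13, 1.47-fold, adjusted p = 0.001). These 6 calls held without each array in turn, while SLC38A2 (-0.18 ± 0.07, adjusted p = 0.0318) lost its call without hypoxic replicate 1 (-0.05, adjusted p = 0.757) and without normal growth replicate 2 or 3. The second SLC1A5 cluster fell by less (-0.39 ± 0.12, adjusted p = 0.00923). The shControl arrays compared here also enter the line differences that chose SLC38A5 and SLC1A3. The tests of these genes are therefore not independent of that choice.

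Unstressed shControl cells also differed between experiments. SLC1A1 averaged 7.14 in DMSO, 8.84 in high glucose and 7.98 in normal growth, and SLC1A4 7.47, 8.57 and 8.86 in the same groups. The hypoxia difference of both genes was smaller than that span of 1.70 and 1.39 log2 units. By group means the hypoxia difference was larger than the span for SLC1A3, SLC1A5, SLC38A1, SLC38A2 and SLC38A5. Their means were lower in hypoxic shControl cells than in any unstressed shControl group. For SLC38A2 the means were close, 13.06 under hypoxia against 13.09 in high glucose. Its hypoxic arrays (12.93 and 13.20) overlapped with those of high glucose and DMSO. The share of all genes with a hypoxia difference larger than the span was not computed. SLC38A5 differed least between experiments, with unstressed means that spanned 0.061. The part of the experiment in these differences was not tested.

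In shCDK8 cells hypoxia against normal growth changed 3 of the 6 tested transporters, against 9.1% of all genes. SLC1A1 rose (0.73 ± 0.13, 1.66-fold, adjusted p = 0.000398), SLC1A4 fell (-0.72 ± 0.12, 1.64-fold, adjusted p = 0.000274) and SLC1A5 fell by 1.13-fold (-0.18 ± 0.05, adjusted p = 0.0311). The SLC1A5 call was lost without either hypoxic array or normal growth replicate 2 or 3 (adjusted p between 0.0918 and 0.216), and its second cluster was at 0.016 ± 0.12. Without normal growth replicate 1, SLC38A1 passed as well (-0.20, adjusted p = 0.0281). In shCDK19 cells 4 of 6 changed, against 31.3% of all genes: SLC1A1 rose (0.74 ± 0.13, adjusted p = 4.25e-05), and SLC1A4 (-1.27 ± 0.12, adjusted p = 6.8e-09), SLC1A5 (-0.74 ± 0.05, adjusted p = 4.53e-11) and SLC38A1 (-0.57 ± 0.06, adjusted p = 5.23e-08) fell. SLC38A5 and SLC1A3 were not tested in the knockdown lines. SLC38A5 was at 0.13 ± 0.11 in shCDK8 cells and -0.76 ± 0.11 in shCDK19 cells, and SLC1A3 was at -0.07 ± 0.12 in shCDK8 cells and -0.03 ± 0.12 in shCDK19 cells.

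**Figure D5:**
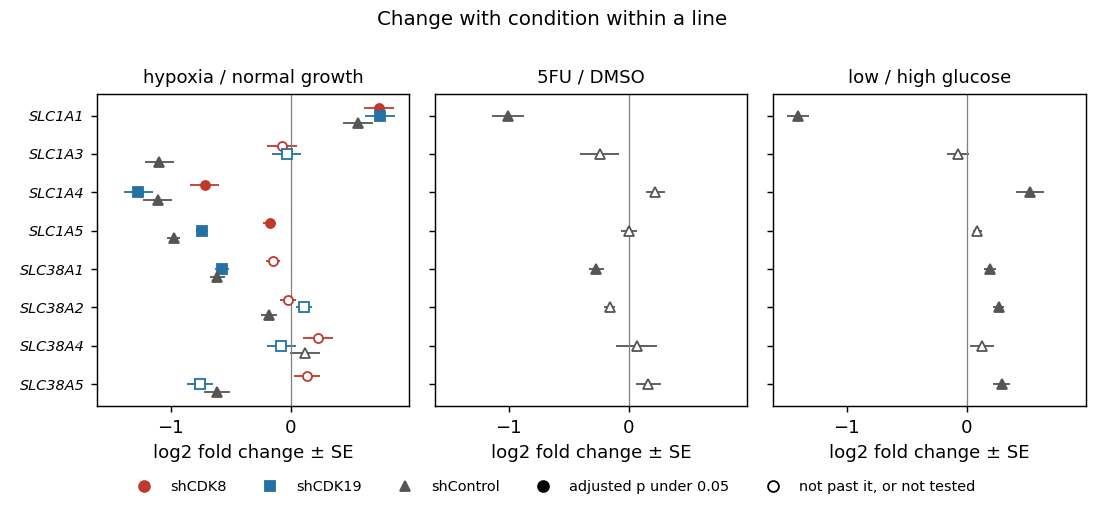
Log2 fold change ± SE of the 8 transporters under hypoxia over normal growth in each line (left), and after 5FU over DMSO (middle) and in low over high glucose (right) in shControl cells. Filled symbols passed an adjusted p under 0.05, and SLC1A1 lies right of 0 under hypoxia in every line and left of 0 in both other panels.

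Whether a knockdown's effect differed between a stress and normal growth was tested for the 6 genes as a difference of differences, in 1 fit of all arrays. For shCDK8 under hypoxia 2 of 6 passed, against 11.5% of all genes. SLC1A5 was -0.43 in shCDK8 over shControl cells in normal growth and 0.37 under hypoxia, a difference of 0.80 ± 0.07 (adjusted p = 2.12e-07), and SLC38A1 had a difference of 0.46 ± 0.09 (adjusted p = 0.00094). Both held without each of the 10 arrays in turn, but the second SLC1A5 cluster did not pass (0.40 ± 0.16, adjusted p = 0.113). For shCDK19 under hypoxia 0 of 6 passed by limma, against 2.08% of all genes, and at an unadjusted p under 0.05 it was 2 of 6, against 16.5% of all genes. Without hypoxic shControl replicate 2, SLC38A2 passed for shCDK8 (0.30, adjusted p = 0.0185) and for shCDK19 (0.43, adjusted p = 0.00366).

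For shCDK8 under 5FU 2 of 6 passed, against 11.9% of all genes. SLC1A4 had a difference of 0.70 ± 0.17 (adjusted p = 0.00598) that held without each array, and SLC1A5 one of 0.24 ± 0.07 (adjusted p = 0.0338) that was lost in 6 of 10 such fits (adjusted p between 0.0719 and 0.201). For shCDK19 under 5FU 3 of 6 passed, against 4% of all genes: SLC1A4 (0.70 ± 0.17, adjusted p = 0.0144), SLC38A2 (0.45 ± 0.10, adjusted p = 0.00561) and SLC1A5 (0.30 ± 0.07, adjusted p = 0.0166). SLC38A2 held without each array but was lost with array medians subtracted (adjusted p = 0.111), SLC1A4 was lost without shCDK19 or shControl 5FU replicate 2, and SLC1A5 without shCDK19 5FU replicate 2 or either shControl 5FU array. For shCDK8 in low glucose 1 of 6 passed, SLC1A4 (0.51 ± 0.15, adjusted p = 0.0254), against 12.8% of all genes, and for shCDK19 in low glucose 1 of 6, SLC1A5 (0.28 ± 0.07, adjusted p = 0.0232), against 1.79%. Each of these low glucose calls was lost without any of 7 of the 12 arrays (adjusted p between 0.0516 and 0.0765 for SLC1A4 and between 0.0544 and 0.0772 for SLC1A5). The second SLC1A5 cluster did not pass in these comparisons (adjusted p = 0.384 for shCDK8 under 5FU, 0.826 for shCDK19 under 5FU and 0.642 for shCDK19 in low glucose). The differences that passed in this fit were positive, so for those genes the knockdown line stood higher relative to shControl cells under stress than in normal growth. SLC1A1 for shCDK8 under 5FU had the opposite sign (-0.52 ± 0.18, adjusted p = 0.0594). It passed with dim genes filtered (adjusted p = 0.0471), with the replicate block (adjusted p = 0.0412), without shCDK8 5FU replicate 2 (-0.67, adjusted p = 0.0318) and without shCDK8 normal growth replicate 1 (-0.65, adjusted p = 0.0114). The 2 knockdown lines share their shControl arrays, so their values are not independent. All these comparisons also use the same shControl arrays of normal growth. Those arrays had the highest group mean of SLC1A5 (11.96) and of SLC38A1 (12.72). The common sign is thus not independent between stresses either.

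Other genes of glutamine and glutamate handling were followed as 5 lists. Whether calls of single list genes hold in the alternative settings or without 1 array was not examined. Of 10 further SLC1 and SLC38 genes, hypoxia changed 2 upward and 5 downward in shControl cells (median -0.11, against 0.056 over all genes, of which 47.8% passed), led by the lysosomal carriers SLC38A9 (-1.48 ± 0.18, adjusted p = 7.29e-07) and SLC38A7 (-1.28 ± 0.11, adjusted p = 2.62e-09). In hypoxic shCDK8 over shControl cells 3 rose and 1 fell (median -0.17, against -0.07 over all genes, of which 7.3% passed), with SLC38A6 at 1.40 ± 0.17 (adjusted p = 0.0196) and SLC38A7 at 1.14 ± 0.10 (adjusted p = 0.0104). In normal growth 2 rose and 1 fell in shCDK8 cells (median 0.0063) and 1 fell in shCDK19 cells (median 0.0025), where 24.9% and 7.07% of all genes passed. SLC38A3, a glutamine carrier known from liver and kidney, was lower in shCDK8 cells (-0.85 ± 0.08, adjusted p = 0.000234) and in shCDK19 cells (-0.44 ± 0.08, adjusted p = 0.0168). In low over high glucose, where 31.2% of all genes passed, 0 rose and 3 fell, SLC38A3 by most (-0.79 ± 0.09, adjusted p = 0.000121).

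Of 9 other carriers of the cell surface, 0 rose and 4 fell in shCDK8 cells in normal growth (median -0.12, against -0.02 over all genes, of which 24.9% passed). SLC7A8, a light chain of an exchanger for large neutral amino acids and glutamine, fell 4.11-fold in shCDK8 cells (-2.04 ± 0.10, adjusted p = 1.13e-05) and 1.8-fold in shCDK19 cells (-0.85 ± 0.10, adjusted p = 0.003), where 0 rose and 2 fell and 7.07% of all genes passed. SLC7A11, which exports glutamate for cystine, fell in shCDK8 cells (-0.53 ± 0.09, adjusted p = 0.00417), fell in hypoxic shControl cells (-1.58 ± 0.14, 2.99-fold, adjusted p = 7.38e-09) and fell after 5FU (-1.20 ± 0.16, adjusted p = 0.0121). Under 5FU it was higher in shCDK19 than in shControl cells (1.21 ± 0.16, 2.31-fold, adjusted p = 0.0446 by limma). The 154 calls over all genes in that comparison became 20 without moderation of the variance and 1067 with the other choice of arrays. In low over high glucose 3 rose and 1 fell, against 31.2% of all genes: SLC7A11 (0.58 ± 0.06, adjusted p = 6.57e-05), SLC3A2 (0.34 ± 0.05, adjusted p = 0.000527) and SLC7A5 (0.22 ± 0.04, adjusted p = 0.00212) rose, and SLC7A8 fell (-1.05 ± 0.07, adjusted p = 2.06e-06). Of 7 mitochondrial and vesicular carriers 0 passed in either knockdown line in normal growth by limma (medians -0.05 in shCDK8 and 0.061 in shCDK19 cells). In hypoxic shControl cells 3 of these 7 rose and 2 fell (median 0.14), where 47.8% of all genes passed, with the aspartate-glutamate carrier SLC25A13 at -1.32 ± 0.11 (adjusted p = 8.04e-10).

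Of 29 enzymes that make or use glutamine or glutamate 22 were tested. In shCDK8 cells in normal growth 4 rose and 5 fell (median -0.03, against -0.02 over all genes, of which 24.9% passed), among them asparagine synthetase ASNS (-0.87 ± 0.07, adjusted p = 0.00011), the serine pathway enzyme PSAT1 (-0.51 ± 0.09, adjusted p = 0.00466) and NADSYN1, which uses glutamine to make NAD, upward (0.90 ± 0.06, adjusted p = 6.4e-05). In shCDK19 cells 1 rose, against 7.07% of all genes, CAD of pyrimidine synthesis (0.85 ± 0.05, adjusted p = 9.88e-05), and under 5FU 2 rose in shCDK19 over shControl cells, against 0.837% of all genes, ASNS (0.80 ± 0.06, adjusted p = 0.0131) and PSAT1 (0.42 ± 0.05, adjusted p = 0.0394). Low over high glucose moved 6 upward and 7 downward (median -0.02, against 0.017 over all genes, of which 31.2% passed), with GCLC of glutathione synthesis at 0.66 ± 0.08 (adjusted p = 0.000121) and ASNS at 0.52 ± 0.07 (adjusted p = 0.000404). Hypoxia over normal growth moved 1 upward and 13 downward in shControl cells (median -0.27, against 0.056 over all genes, of which 47.8% passed), with CTPS1 of CTP synthesis at -1.15 ± 0.10 (adjusted p = 2.08e-09) and PSAT1 at -1.14 ± 0.07 (adjusted p = 6.31e-12).

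Of 10 regulators of amino acid transporter genes 5 rose and 0 fell in low over high glucose (median 0.15, against 0.017 over all genes, of which 31.2% passed). DDIT3, a stress-induced partner of C/EBP factors, rose 6.96-fold (2.80 ± 0.06, adjusted p = 4.4e-09), ATF5 2.3-fold (1.20 ± 0.06, adjusted p = 8.93e-07) and ATF4, the main factor of the amino acid response, 1.48-fold (0.57 ± 0.05, adjusted p = 1.81e-05). In normal growth 1 rose and 4 fell in shCDK8 cells (median -0.09) and 2 rose and 3 fell in shCDK19 cells (median -0.05), where 24.9% and 7.07% of all genes passed. DDIT3 fell in shCDK8 cells (-1.11 ± 0.12, adjusted p = 0.000386) and in shCDK19 cells (-1.45 ± 0.12, adjusted p = 0.000407), and EPAS1, a hypoxia-inducible factor, fell in shCDK8 cells (-1.18 ± 0.05, adjusted p = 3.7e-06) and rose in shCDK19 cells (0.39 ± 0.05, adjusted p = 0.00327). The part of these regulators in the transporter values was not tested.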

How the data were processed

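RNA of 35 HCT116 samples was measured on Affymetrix HuGene 1.0 ST arrays, 1 sample each. Values are log2 signals deposited by the authors in a table of all arrays, in which the lowest value, 4.32, recurs on every array as a floor. The submitters' processing notes name Partek, and the design text a one-way ANOVA in it; the sources used here give no background correction, summarisation, normalisation or genome build. Depth has no meaning for arrays, and their number limits the precision.

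GEO's annotation of the array gives exactly 1 symbol to 19158 of its 32321 transcript clusters, and the brightest per gene was kept (18404 genes). Linear models with moderated variance were fitted over all genes in limma 3.58.1 (R 4.3.3, data.table version 1.17.8), with Benjamini-Hochberg adjustment and a threshold of 0.05. Line comparisons and the 5FU and glucose responses used the arrays of their own experiment, with all its groups; hypoxia against normal growth and differences of differences used all 35 arrays. The fit was tested on simulated data with 200 changed genes. Tables were written with Python 3.11.15 (pandas 2.3.3) and drawn with matplotlib 3.10.9. Promoter sequences and gene order are RefSeq's (GRCh38.p14).

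The 8 transporters and the 5 gene lists were chosen with earlier results of these data known. From a list, at most 4 genes past the threshold with the largest change could be named per comparison. Likeness was ranked by Pearson r over the 14 group means among genes whose group means had an SD of at least 0.5 and that were above the floor on at least 18 arrays, and 5 genes were named for each of SLC38A5 and SLC1A3; the CDK8 cluster and CDK19 served to check the labels. The listed enzymes that were not tested are not reported here. Alternatives were another choice of arrays in the fit, subtracted array medians, only genes with a mean of at least 6, all clusters, no moderation of the variance, the replicate number as a block, the other cluster of SLC1A5, and leaving out each array in turn.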

Additional observations from a re-analysis of the deposited data

Results flagged for a closer look

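The tested transporters whose difference between a knockdown line and shControl cells changed between a stress and normal growth by the interaction test of limma were the following. Under hypoxia the shCDK8 difference was higher than in normal growth by 0.80 ± 0.073 (log2 ± SE, adjusted p = 2.12e-07) for SLC1A5 and by 0.46 ± 0.086 (adjusted p = 0.00094) for SLC38A1. Under 5FU the shCDK8 difference was higher by 0.70 ± 0.17 (adjusted p = 0.00598) for SLC1A4 and by 0.24 ± 0.073 (adjusted p = 0.0338) for SLC1A5. Under 5FU the shCDK19 difference was higher by 0.70 ± 0.17 (adjusted p = 0.0144) for SLC1A4, by 0.45 ± 0.096 (adjusted p = 0.00561) for SLC38A2 and by 0.30 ± 0.073 (adjusted p = 0.0166) for SLC1A5. In low glucose the shCDK8 difference was higher by 0.51 ± 0.15 (adjusted p = 0.0254) for SLC1A4 and the shCDK19 difference by 0.28 ± 0.065 (adjusted p = 0.0232) for SLC1A5. The stress arrays and the normal growth arrays come from separate experiments, so stress and experiment cannot be told apart in these values. All of them use the same shControl arrays of normal growth, so they are not independent. With array medians subtracted, SLC1A5 under 5FU and in low glucose and SLC38A2 for shCDK19 under 5FU lost their calls. The second SLC1A5 cluster passed in none of the SLC1A5 comparisons listed here. Calls lost without single arrays are given with the results above.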

How the results depend on the processing

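Without each array in turn, 851 of 924 member values kept their direction and side of the threshold, 58 lost and 15 gained a call, and 0 turned direction as a call. In the other settings 778 of 828 did so, 32 lost and 17 gained a call, and 1 turned direction: SLC1A5 in shCDK8 cells under hypoxia, at 0.016 in the other cluster of the gene. Signs changed with neither value called in 47 of 1752. The count of transporters that passed was 1 with array medians subtracted for shCDK19 over shControl in normal growth (2 in the report). In normal growth the other choice of arrays added SLC1A5 for shCDK19 over shControl (adjusted p = 0.0102) and SLC38A2 for shCDK8 over shControl (0.0189) and over shCDK19 (0.0185). Under 5FU, where 0 passed, it was 2 with the other choice of arrays and 1 with dim genes filtered for shCDK8 over shControl, and 1 with the other choice of arrays for shCDK8 over shCDK19. Under hypoxia it was 3 for shCDK8 over shControl with the other choice of arrays and 0 with all clusters, no moderation or the replicate block (1 in the report), 1 for shCDK19 over shControl with the other choice of arrays (0), and for shCDK8 over shCDK19 it was 4 with the other choice of arrays, 2 with medians subtracted or dim genes filtered and 0 with no moderation or the replicate block (1). For 5FU over DMSO it was 1 with medians subtracted, dim genes filtered, all clusters or the replicate block and 0 with no moderation (2). For differences of differences, with medians subtracted it was 1 for shCDK8 under 5FU (2), 1 for shCDK19 under 5FU (3) and 0 for shCDK19 in low glucose (1), the last also 0 with dim genes filtered. Without 1 array these counts ran from 3 to 5 and from 1 to 1 for shCDK8 and shCDK19 over shControl in normal growth, from 2 to 4 between the knockdown lines there, from 0 to 3, 0 to 1 and 0 to 0 for the same pairs under hypoxia, from 0 to 2 for 5FU over DMSO, from 1 to 3 for either knockdown under 5FU against normal growth, and from 0 to 1 for either in low glucose and for shCDK19 under hypoxia. The cause of these shifts was not tested.

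For same-numbered arrays of different groups, the correlation of their deviations had medians of 0.023 in normal growth and 0.033 in low glucose. For differently numbered arrays these medians were -0.024 and -0.012. Under 5FU and hypoxia the same-numbered medians were -0.0056 and -0.19. There each group was a single pair of arrays, so differently numbered values are mirror images (0.0056 and 0.19) and give no separate comparison. Same-numbered correlations ran from -0.62 to 0.41 over the experiments. The check therefore neither shows nor excludes pairing by replicate number, and the labels do not settle it. With the replicate block the number of all genes called was 781 instead of 1301 for shCDK19 over shControl in normal growth, 355 instead of 645 for shCDK8 over shControl and 53 instead of 154 for shCDK19 over shControl under 5FU, 479 instead of 946 for shCDK8 over shCDK19 under 5FU, and 312 instead of 1343, 1 instead of 42 and 764 instead of 2273 for the same pairs under hypoxia.

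The counts of all genes behind the background shares also moved. With the other choice of arrays they were 1713, 1067 and 2221 under 5FU (shCDK8 over shControl, shCDK19 over shControl, shCDK8 over shCDK19), 6392, 2641 and 5925 for the same pairs under hypoxia, 3526 for 5FU over DMSO (2109 in the report) and 916 for hypoxia in shCDK8 cells (1674). Without moderation they were 238, 20 and 287 under 5FU, 334, 3 and 765 under hypoxia and 849 for 5FU over DMSO. With medians subtracted they were 781 for shCDK19 over shControl in normal growth, 122 for that pair under hypoxia, 856 for hypoxia in shCDK8 cells, and 354, 146 and 112 for the differences of shCDK19 under 5FU (736), in low glucose (329) and under hypoxia (383). For shCDK19 over shControl, dim genes filtered gave 358 under 5FU and 101 under hypoxia, and all clusters 2 under hypoxia. Without 1 hypoxic knockdown array the count fell to as low as 2 for shCDK8 and 0 for shCDK19 over shControl and lay between 0 and 6 for shCDK8 over shCDK19, and for 5FU over DMSO it lay between 225 and 2987 without 1 array. Without hypoxic shControl replicate 2 it was 8548 for shCDK8 and 4320 for shCDK19 over shControl under hypoxia, 12096 for hypoxia in shControl cells (8801) and 6947 for the difference of shCDK8 under hypoxia (2118), and without hypoxic shControl replicate 1 the count for hypoxia in shControl cells was 4549. With 2 arrays in a group, leaving out 1 left between 5 and 158 genes called between lines under 5FU. SLC38A4 was near the floor, where signal over background limits what can be seen.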
